A study of Mus musculus with 6 samples.

Results

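Checkpoint genes were followed in mouse T cells carrying the Ifnar1-SA allele and in wild-type (WT) T cells. Immune checkpoints are surface receptors that restrain T cells, together with the ligands that engage them. The 10 genes were chosen by symbol, and all were found among the 24493 gene symbols of the deposited table. Of these, 8 encode inhibitory receptors (Ctla4, Lag3, Tigit, Pdcd1, Havcr2, Btla, Cd160 and Cd96) and 2 encode ligands (Cd274 and Cd200). The data are 6 mRNA sequencing libraries, 3 labelled Ifnar1-SA and 3 labelled WT, of naive CD4 T cells of the spleen that were cultured under conditions meant to give regulatory T (Treg) cells. Type I interferon acts through a receptor of which Ifnar1 is one subunit, and the SA allele is known as a knock-in with alanine in place of a serine, which slows the loss of the receptor from the cell. For both genotypes the labels give no strain, age, culture time, interferon treatment or further allele. Separate animals or cultures are not named for the 3 libraries of a genotype, so p-values reflect the spread between samples that may be technical repeats. Levels are in TPM, the authors' unit, a share of all transcripts after correction for their length, and the sequencing depth behind them is unknown.

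Naive T cells carry few checkpoint receptors, and activation brings them to the surface. CTLA-4 takes up and competes for the ligands CD80 and CD86 that CD28 needs, and Treg cells hold large amounts of it. PD-1 (Pdcd1) and BTLA recruit tyrosine phosphatases to the activated T cell receptor, LAG-3 binds MHC class II, which is also the ligand of CD4, and TIGIT and CD96 compete with the activating receptor CD226 for the poliovirus receptor. Type I interferon is known to raise PD-L1 (Cd274) in many cell types.

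The cells had the transcripts of activated CD4 T cells, while Foxp3, which defines Treg cells, was low. The summed level of 8 Treg markers was 2833 to 3661 TPM in Ifnar1-SA and 2812 to 3638 TPM in WT, most of it from Tnfrsf18 (GITR), which activated T cells also carry, at 2400 to 3204 TPM in Ifnar1-SA and 2371 to 3238 TPM in WT. The summed level of 8 T cell markers was 2283 to 2604 TPM in Ifnar1-SA and 2236 to 2334 TPM in WT. Cd3d, Cd3g and Zap70 of that list were higher in every Ifnar1-SA library than in any WT library, against 1.97% of all genes. Their means were 1.16-fold, 1.15-fold and 1.23-fold those of WT (limma unadjusted p = 0.173, 0.191 and 0.112). The other T cell markers overlapped, and the part of these markers in the checkpoint values was not tested. Foxp3, the lineage factor of Treg cells, was at 0.746, 1.82 and 0.759 TPM in Ifnar1-SA and 0.697, 0.295 and 0.276 TPM in WT. It did not overlap but was too low for the limma test, and the Treg label was not borne out by this defining marker. Il2ra, which encodes the interleukin-2 receptor alpha chain of Treg and activated T cells, was at 422 to 444 TPM in Ifnar1-SA and 359 to 428 TPM in WT. Mean levels of Ikzf2, Itgae, Lrrc32 and Nrp1 of the same list were 1.03 to 1.75 TPM in Ifnar1-SA and 0.899 to 2.09 TPM in WT. Ikzf4 averaged 6.07 TPM in Ifnar1-SA and 7.91 TPM in WT. Summed markers of B cells were 3.59 to 9.17 TPM in Ifnar1-SA and 4.05 to 11.4 TPM in WT, and those of myeloid and dendritic cells 12.6 to 15.7 TPM in Ifnar1-SA and 10.8 to 19.1 TPM in WT. For CD8 T and NK cells the sum was 1744 to 2613 TPM in Ifnar1-SA and 953 to 2724 TPM in WT, most of it from Nkg7, with Klrd1, Klrk1, Ncr1 and Klrb1c under 1 TPM in all 6 libraries. The CD8 genes of that list were present, with Cd8b1 at 9.07 to 15.4 TPM in Ifnar1-SA and 10.2 to 15.4 TPM in WT. Cd8a was at 1.92 to 3.19 TPM in Ifnar1-SA and 1.55 to 4.26 TPM in WT. Prf1 was at 5.18 to 12.0 TPM in Ifnar1-SA and 2.82 to 6.65 TPM in WT, and all 3 overlapped. Gzma of that list, a granzyme gene of cytotoxic cells, did not overlap, at 61.4, 109 and 86.9 TPM in Ifnar1-SA and 31.6, 33.9 and 36.3 TPM in WT (limma unadjusted p = 7.77e-04, adjusted p = 0.353), and its part in the checkpoint values was not tested. The sums of the 7 neutrophil, mast cell and basophil markers did not overlap, at 19.0 to 25.5 TPM in Ifnar1-SA and 10.4 to 15.02 TPM in WT. Ly6g made up most of the sums in Ifnar1-SA and was the only marker of that list without overlap. It was at 14.2, 15.6 and 21.4 TPM in Ifnar1-SA and at 6.55, 6.46 and 6.52 TPM in WT. S100a9 and Csf3r overlapped, with lower means in Ifnar1-SA. S100a8, Cpa3, Mcpt8 and Fcer1a of that list were under 1 TPM throughout, and the part of these markers in the checkpoint values was not tested. Across genes, WT 2 and Ifnar1-SA 1 deviated from their genotype means in a like way, though weakly (r = 0.25). This was the highest r of any WT library with any Ifnar1-SA library, so counts are also given without that pair.

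Ctla4 was by far the most abundant of the 10 genes in both genotypes, and the receptors Ctla4, Lag3 and Tigit were at higher levels in every Ifnar1-SA library than in any WT library. Their mean levels were 1.40-fold, 1.46-fold and 1.38-fold those of WT. Cd200 went the other way, with a mean 0.734-fold that of WT and no overlap. Pdcd1 and Havcr2 had higher means in Ifnar1-SA but overlapped, and Btla, Cd96 and Cd274 also overlapped. None of these differences passed the test over all genes. In bulk RNA, fewer cells carrying a transcript and less transcript per cell cannot be told apart.

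The test was limma on log2(TPM + 1), a scale that understates the change of low genes, over 12141 genes, namely those averaging 1 TPM or more. Cd160 was under this limit, so 9 of the 10 genes were tested. With limma, 0 of the 9 passed an adjusted p of 0.05 in either direction, against 0.0165% of all genes tested as higher and 0.0412% as lower in Ifnar1-SA. The genes that passed were 7 microRNA entries (Mir8104, Mir216a, Mir5110, Mir378d, Mir6379, Mir148b and Mir191, named after their values were seen). At an unadjusted p under 0.05, 4 of the 9 were higher in Ifnar1-SA (Ctla4, Lag3, Tigit and Havcr2), against 1.44% of all genes, and 0 were lower, against 1.68%. Without overlap between the genotypes, 3 of the 9 were higher, against 1.97% of all genes, and 1 was lower, against 3.8%. The median log2 difference of the 9 genes was 0.46, beside −0.056 for all genes tested. The count of 4 is small and moved with single libraries. It was 1 without WT 2, without WT 3 or without Ifnar1-SA 2, 2 without Ifnar1-SA 1 or without Ifnar1-SA 3, 5 without WT 1, and 1 without both WT 2 and Ifnar1-SA 1. It was 2 with libraries scaled by median-of-ratios or centred on the T cell markers, and in both cases these were Lag3 and Tigit.

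**Figure D1:**
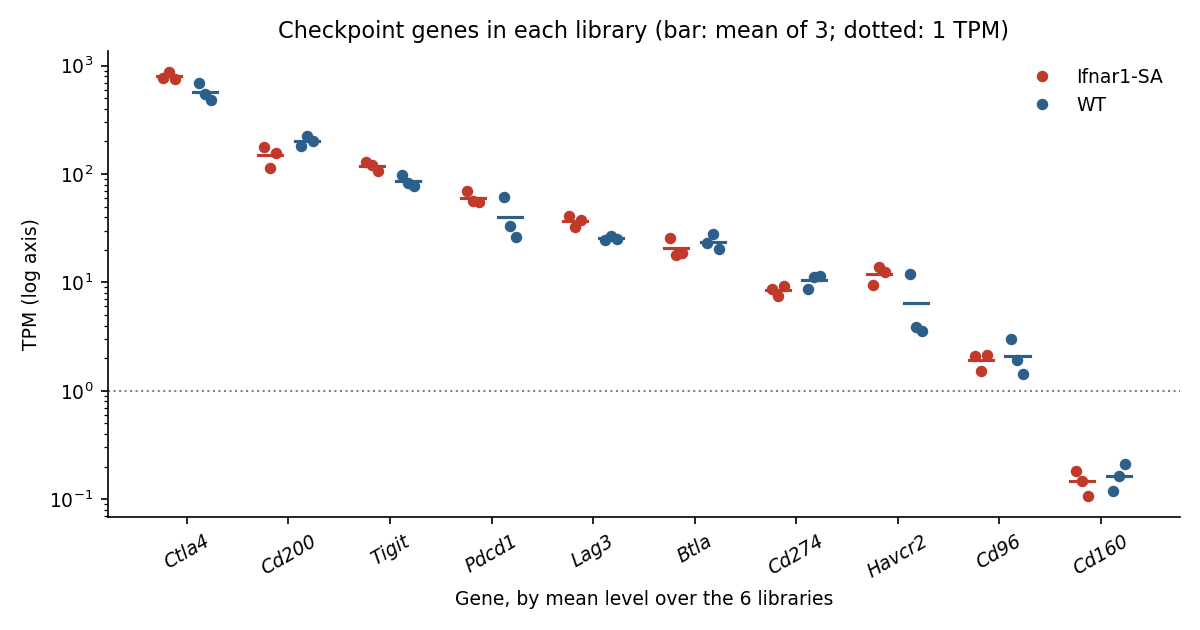
Level of each checkpoint gene in TPM (log axis) in the 3 Ifnar1-SA and the 3 WT libraries, with genes ordered by mean level; points are libraries and bars are means of 3. Ctla4, Lag3 and Tigit sit higher in all Ifnar1-SA libraries, Cd200 sits lower, and Cd160 lies under 1 TPM throughout.

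The genes spanned a wide range, from 805 ± 61.7 TPM for Ctla4 to 0.146 ± 0.0375 TPM for Cd160 in Ifnar1-SA, and from 575 ± 111 to 0.165 ± 0.0469 TPM in WT (SD, n = 3 each). In Ifnar1-SA the order of mean levels was Ctla4, Cd200, Tigit, Pdcd1, Lag3, Btla, Havcr2, Cd274, Cd96 and Cd160, and only Cd200 and Tigit overlapped among neighbours. In WT it was Ctla4, Cd200, Tigit, Pdcd1, Lag3, Btla, Cd274, Havcr2, Cd96 and Cd160, where Pdcd1 and Lag3, Lag3 and Btla, and Cd274 and Havcr2 overlapped. Only 190 of the 24493 genes had a higher mean than Ctla4 in Ifnar1-SA, and 252 in WT. The 8 receptors summed to 1056, 1119 and 994 TPM in the Ifnar1-SA libraries and to 920, 721 and 637 TPM in the WT libraries. The WT library nearest to Ifnar1-SA was therefore WT 1. Ctla4 made up 76.2 ± 2.33% of that sum in Ifnar1-SA and 75.7 ± 0.216% in WT, and these shares overlapped between the genotypes.

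Promoter windows of RefSeq (build GRCm38.p6), running from 250 bases before to 50 after the annotated start, were found for 9 of the 10 genes, with 10 windows in all, and not for Lag3. Both strands were searched for the interferon-stimulated response element (GAAANNGAAA), the gamma-activated site (TTCNNNGAA), the AP-1 site (TGANTCA) and the core bound by NFAT (GGAAA), which can lie within other motifs. The interferon element was in 0 of the 10 windows, against 3.44% of all 32851 windows. A count of 0 in so few windows does not set them apart from that share. Counted by gene, the element was found for 8 of the 12 interferon target genes with a window, among them Isg15 and Bst2. The gamma-activated site was in 1 window each of Cd96 and Cd160 (8.30% of all windows), the AP-1 site in that of Havcr2 (7.81%), and the NFAT core in those of Ctla4, Tigit, Pdcd1, Cd274, Cd96 and Cd160 (61.3%). These are matches of letters, and say nothing of enhancers outside the windows. The windows of the receptors Ctla4 and Tigit and of the ligand Cd200, whose libraries did not overlap, are shown with that of Havcr2, the receptor with the largest log2 difference, each on the strand of its gene from 5′ to 3′. Capitals mark NFAT cores in Ctla4 (chr1:60908775-60909074, plus strand, inside the span of the gene in GENCODE, which has a longer transcript) and Tigit (chr16:43664135-43664434, minus strand) and the AP-1 site in Havcr2 (chr11:46454681-46454980, plus strand), and Cd200 (chr16:45409004-45409303, minus strand) held none of the 4 motifs.
Ctla4: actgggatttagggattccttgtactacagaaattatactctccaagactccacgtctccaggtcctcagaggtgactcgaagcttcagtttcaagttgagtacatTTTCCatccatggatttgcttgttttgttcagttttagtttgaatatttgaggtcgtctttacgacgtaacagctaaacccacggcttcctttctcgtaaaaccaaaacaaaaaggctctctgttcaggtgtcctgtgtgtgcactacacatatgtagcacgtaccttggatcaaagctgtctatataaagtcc
Tigit: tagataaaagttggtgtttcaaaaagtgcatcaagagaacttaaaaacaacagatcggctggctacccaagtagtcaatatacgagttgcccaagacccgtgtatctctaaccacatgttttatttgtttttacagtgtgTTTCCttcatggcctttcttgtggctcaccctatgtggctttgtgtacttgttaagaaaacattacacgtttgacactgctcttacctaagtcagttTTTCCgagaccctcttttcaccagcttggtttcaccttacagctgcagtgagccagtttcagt
Havcr2: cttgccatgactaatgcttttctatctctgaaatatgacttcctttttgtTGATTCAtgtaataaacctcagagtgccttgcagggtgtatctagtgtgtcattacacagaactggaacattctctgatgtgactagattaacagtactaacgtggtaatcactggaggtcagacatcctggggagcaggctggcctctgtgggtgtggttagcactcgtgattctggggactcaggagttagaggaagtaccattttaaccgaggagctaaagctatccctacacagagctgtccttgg
Cd200: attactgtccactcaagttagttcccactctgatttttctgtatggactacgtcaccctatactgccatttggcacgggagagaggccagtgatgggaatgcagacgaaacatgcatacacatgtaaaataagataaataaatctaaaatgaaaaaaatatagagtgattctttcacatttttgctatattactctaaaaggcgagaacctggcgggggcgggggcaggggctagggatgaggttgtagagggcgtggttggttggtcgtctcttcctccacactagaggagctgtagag

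Ctla4, which takes up and removes the ligands of CD28, was at 778, 876 and 762 TPM in Ifnar1-SA and at 698, 544 and 482 TPM in WT. All Ifnar1-SA libraries lay above all WT libraries, and the nearest pair, Ifnar1-SA 3 and WT 1, differed by less than 1 SD of WT. The genotypes overlapped with libraries scaled by median-of-ratios or centred on the T cell markers. The gene lies on chromosome 1 (GRCm38, 60887000 to 60915832, plus strand, protein-coding, 3 annotated transcripts that the gene-level value adds up). On the log2 scale it differed by 0.50, with standard error 0.18 and a 95% interval of 0.080 to 0.92 (limma, unadjusted p = 0.0261, adjusted p = 0.9997). It was 0.65 without WT 1 and 0.38 without WT 3, and the unadjusted p was 0.0937 without WT 3. Cd28 and Icos, co-stimulatory receptors of the same family and its neighbours on chromosome 1, start 170.2 kb before and 90.9 kb after it. These distances run from the start in GENCODE, and the promoter window shown for Ctla4 lies further into the gene. Cd28 averaged 175 ± 17.5 TPM in Ifnar1-SA and 149 ± 33.7 TPM in WT, and Icos averaged 16.5 ± 4.01 TPM in Ifnar1-SA and 14.4 ± 2.59 TPM in WT, and both overlapped.

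Lag3, a receptor for MHC class II, was at 41.2, 32.6 and 38.0 TPM in Ifnar1-SA and at 24.4, 27.1 and 25.1 TPM in WT. The WT libraries lay close together and all Ifnar1-SA libraries lay above them. Lag3 is on chromosome 6 (124904361 to 124911705, minus strand, 2 transcripts). Its difference on the log2 scale was 0.52 (standard error 0.15) with an interval of 0.17 to 0.88, and it had the smallest p of the 9 genes (limma, unadjusted p = 0.0101, adjusted p = 0.9997). It was the 1 gene of the 9 with an unadjusted p under 0.05 in all 18 alternative settings, the highest being 0.0389 without Ifnar1-SA 3, and the adjusted p was 0.311 at the lowest. Cd4, whose product binds the same ligand and whose gene starts 23.5 kb from that of Lag3, was at 119 ± 7.33 TPM in Ifnar1-SA and 109 ± 2.65 TPM in WT. The ratio of Lag3 to Cd4 within a library was 0.332, 0.295 and 0.310 in Ifnar1-SA and 0.226, 0.251 and 0.223 in WT, again without overlap.

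Tigit, which competes for the poliovirus receptor, was at 129.9, 121 and 106 TPM in Ifnar1-SA and at 98.3, 82.9 and 77.6 TPM in WT. The libraries did not overlap, although Ifnar1-SA 3 and WT 1 were close. Tigit is on chromosome 16 (43648867 to 43664146, minus strand, 1 transcript). The difference in log2 was 0.46, standard error 0.16 (interval 0.076 to 0.85, limma unadjusted p = 0.0254, adjusted p = 0.9997). Cd226, the activating receptor that shares its ligands, was at 3.49, 1.81 and 2.11 TPM in Ifnar1-SA and at 3.98, 6.29 and 4.73 TPM in WT. It was lower in every Ifnar1-SA library, with a log2 difference of −0.80 and a standard error of 0.24 (limma unadjusted p = 0.0119, adjusted p = 0.9997). The Tigit to Cd226 ratio was 37.2, 66.5 and 50.3 in Ifnar1-SA and 24.7, 13.2 and 16.4 in WT. On the log2 scale these ratios averaged 5.64 ± 0.419 in Ifnar1-SA and 4.13 ± 0.459 in WT (SD, n = 3 each), a difference of 1.51 (exact two-sided permutation p = 0.1, the smallest that 3 against 3 libraries allow). It lay between 1.31 and 1.76 when single libraries were left out.

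Cd96, an inhibitory receptor of this group in mice, was low, at 2.11, 1.51 and 2.14 TPM in Ifnar1-SA and at 2.98, 1.91 and 1.43 TPM in WT. Its libraries overlapped throughout, and its log2 difference of −0.067 had an interval from −0.61 to 0.48 (limma adjusted p = 0.9997). The sign turned under quantile scaling (0.046), with array weights (0.060), without WT 1 (0.13) and without Ifnar1-SA 2 (0.038). The ratio of Cd96 to Cd226 was 0.603, 0.833 and 1.01 in Ifnar1-SA and 0.748, 0.304 and 0.303 in WT, with overlap through WT 1. Pvr, the ligand all these receptors share, was at 7.46 ± 1.06 TPM in Ifnar1-SA and 9.42 ± 2.21 TPM in WT. Cd96 (46035657 to 46120251, minus strand), Cd200 and Btla share a stretch of chromosome 16 with Tigit, their starts lying between 43.7 and 46.1 Mb, and Ifnar1 starts on that chromosome at 91.5 Mb. Cd200r1 (44765736 to 44794978, plus strand) also lies in that stretch. Trat1 (48730774 to 48772021, minus strand), Cd80 and Cd86 lie elsewhere on chromosome 16. Whether position bears on these levels was not tested.

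Pdcd1, which encodes PD-1, was at 69.5, 56.7 and 54.7 TPM in Ifnar1-SA and at 61.3, 33.3 and 26.4 TPM in WT. WT 1 lay within the Ifnar1-SA range, while the other WT libraries lay below it. The gene is on chromosome 1 (94038305 to 94052553, minus strand, 1 transcript). In log2 the difference was 0.65, standard error 0.31, with an interval from −0.077 to 1.38 (limma unadjusted p = 0.0723, adjusted p = 0.9997). Without WT 1 it was 0.99 (unadjusted p = 0.00246) and without WT 3 it was 0.40 (unadjusted p = 0.225).

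Havcr2, which encodes the inhibitory receptor TIM-3, showed the same arrangement more strongly, at 9.56, 14.0 and 12.6 TPM in Ifnar1-SA and at 12.0, 3.85 and 3.54 TPM in WT. WT 1 stood well above the other WT libraries and among the Ifnar1-SA libraries. Havcr2 lies on chromosome 11 (46454935 to 46481255, plus strand, 2 transcripts). Its log2 difference of 0.97 was the largest of the 9 genes and had the largest standard error, 0.41, with an interval from 0.0055 to 1.94 (limma unadjusted p = 0.0490, adjusted p = 0.9997). It was 1.46 without WT 1 and 0.70 without WT 3, and the unadjusted p was 0.204 without both WT 2 and Ifnar1-SA 1. Lgals9, which encodes the TIM-3 ligand galectin-9, was at 179 ± 42.5 TPM in Ifnar1-SA and 130.3 ± 19.4 TPM in WT.

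WT 1 was the highest WT library for 5 of the 9 tested genes, namely Ctla4, Tigit, Pdcd1, Havcr2 and Cd96, and for 32.2% of all genes tested. WT 2 was the highest for Lag3, Btla and Cd200 and for 58.0% of all genes, and WT 3 for Cd274 and 9.76%. Among other genes, Nkg7, a granule protein gene of cytotoxic and type 1 T cells, was at 1661, 2484 and 2337 TPM in Ifnar1-SA and at 2672, 896 and 1329 TPM in WT, also with its highest WT value in WT 1. Prdm1, which encodes a repressor linked to checkpoint gene expression, was at 5.62 ± 0.902 TPM in Ifnar1-SA and at 6.59, 2.95 and 2.78 TPM in WT. Whether these levels bear on those of Pdcd1 and Havcr2 was not tested. Without WT 1, 5 of the 9 genes did not overlap as higher in Ifnar1-SA, against 8.43% of all genes, and 2 as lower, against 14.6%.

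Btla, a receptor of the CD28 family that binds the TNF receptor family member HVEM (Tnfrsf14), was at 25.9, 17.9 and 18.7 TPM in Ifnar1-SA and at 23.1, 28.1 and 20.3 TPM in WT. The genotypes overlapped, and the log2 difference of −0.19 had an interval from −0.67 to 0.28 (limma adjusted p = 0.9997). Btla lies on chromosome 16 (45224315 to 45257670, plus strand). Tnfrsf14 was at 3.23 ± 0.682 TPM in Ifnar1-SA and 2.92 ± 0.264 TPM in WT. The ratio of Btla to Tnfrsf14 was 6.49, 6.71 and 6.15 in Ifnar1-SA and 7.61, 9.08 and 7.76 in WT, without overlap, though neither gene alone separated the genotypes. Cd160, the other inhibitory receptor for HVEM, was barely detected, at 0.182, 0.148 and 0.107 TPM in Ifnar1-SA and 0.119, 0.163 and 0.213 TPM in WT. It lies on chromosome 3 (96798763 to 96829351, minus strand). These values are too low to compare the genotypes, and the exact two-sided permutation p was 0.7.

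Both ligands had lower means in Ifnar1-SA. Cd200, a membrane glycoprotein that signals through the inhibitory receptor CD200R, was at 177, 113 and 157 TPM in Ifnar1-SA and at 183, 225 and 200 TPM in WT. The libraries did not overlap, but Ifnar1-SA 1 and WT 1 lay close together. Cd200 is on chromosome 16 (45382135 to 45409053, minus strand, 11 transcripts). Its difference in log2 was −0.46, standard error 0.20, with an interval from −0.95 to 0.022 (limma unadjusted p = 0.0587, adjusted p = 0.9997). It was −0.28 without Ifnar1-SA 2, and under median-of-ratios scaling the libraries overlapped. Cd200r1, which encodes its receptor, was at 10.1 ± 1.06 TPM in Ifnar1-SA and 7.64 ± 1.46 TPM in WT, higher in each Ifnar1-SA library (limma unadjusted p = 0.0721). The Cd200 to Cd200r1 ratio was 18.6, 9.95 and 16.5 in Ifnar1-SA and 21.7, 26.4 and 33.6 in WT, a log2 difference of −0.88 without overlap (p = 0.1 by the exact permutation test).

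Cd274, which encodes PD-L1, was at 8.77, 7.52 and 9.36 TPM in Ifnar1-SA and at 8.70, 11.3 and 11.5 TPM in WT. The genotypes overlapped through WT 1. The gene lies on chromosome 19 (29367455 to 29388095, plus strand, 1 transcript), and the log2 difference of −0.26 had an interval from −0.65 to 0.13 (limma adjusted p = 0.9997). A Cd274 level higher by more than 0.13 on this scale lay outside that interval, which is unadjusted and holds for the setting as reported only. The difference ran from −0.35 to −0.16 over the alternatives with all 6 libraries and from −0.38 to −0.18 with libraries left out. Pdcd1lg2, which encodes the second PD-1 ligand and starts 43.5 kb from Cd274, was at 12.9, 10.5 and 15.03 TPM in Ifnar1-SA and at 15.4, 9.81 and 14.6 TPM in WT. The ratio of Pdcd1 to Cd274 was 7.92, 7.54 and 5.85 in Ifnar1-SA and 7.04, 2.96 and 2.30 in WT, with WT 1 again among the Ifnar1-SA values.

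**Figure D2:**
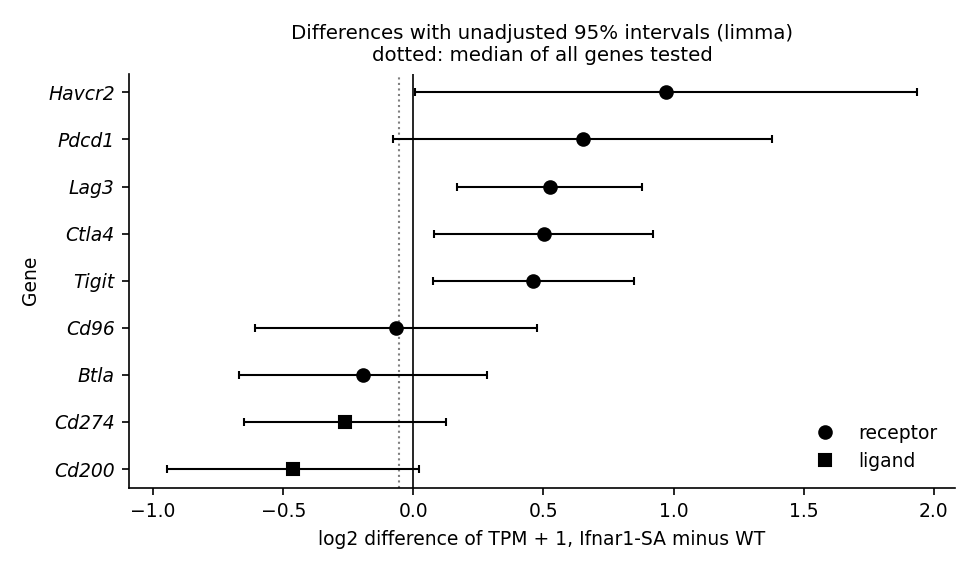
Log2 difference of TPM + 1, Ifnar1-SA minus WT, for the 9 tested genes with unadjusted 95% intervals from limma; circles are receptors, squares are ligands and the dotted line is the median of all genes tested. The intervals of Havcr2, Lag3, Ctla4 and Tigit lie above 0, and both ligands lie below 0 with intervals that include it.

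Ratios within a library do not depend on the scaling factor of that library. Of 8 pairs of checkpoint genes with a partner or competitor, 2 did not overlap as higher in Ifnar1-SA (Tigit to Cd226 and Lag3 to Cd4) and 2 as lower (Btla to Tnfrsf14 and Cd200 to Cd200r1). Tigit was higher and Cd226 lower without overlap, and Cd200 lower and Cd200r1 higher, so the ratios of these pairs had to separate. The pairs were chosen after their values were seen, and no share over other pairs was computed. The ratio of Ctla4 to Cd28 was 4.25, 5.63 and 4.06 in Ifnar1-SA and 5.98, 2.96 and 3.27 in WT. It overlapped, since WT 1 had both the most Ctla4 and the least Cd28 among the WT libraries. The ratio of Havcr2 to Lgals9 was 0.0462, 0.108 and 0.0631 in Ifnar1-SA and 0.0924, 0.0257 and 0.0318 in WT, also with overlap.

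**Figure D3:**
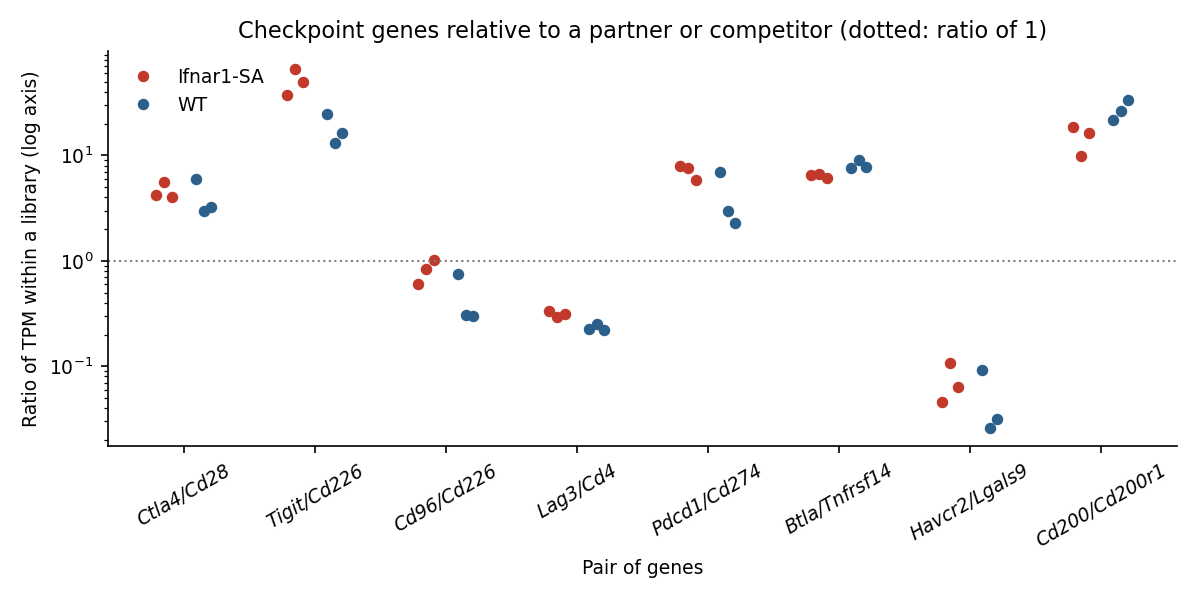
Ratio of TPM within each library (log axis) for 8 pairs of genes, with 3 Ifnar1-SA and 3 WT libraries per pair; points are libraries. Tigit to Cd226 and Lag3 to Cd4 sit higher in all Ifnar1-SA libraries, while Btla to Tnfrsf14 and Cd200 to Cd200r1 sit lower.

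None of the genes on 7 lists around the checkpoints passed the limma test over all genes, whose median log2 difference was −0.056. At an unadjusted limma p under 0.05, 1.44% of all genes tested were higher and 1.68% were lower in Ifnar1-SA. Counts of 0 or 1 in lists this short do not set a list apart from these shares. Of 12 binding partners 8 were tested, with 0 at an unadjusted p under 0.05 in either direction and a median log2 difference of 0.033. Cd80 and Cd86, the ligands of CTLA-4, were at most 1.14 TPM in any library. Of 11 co-stimulatory receptors 0 were higher and 1, Cd226, was lower at an unadjusted p under 0.05, with a median of 0.13. Cd2, an adhesion and co-stimulatory receptor, averaged 1032 ± 112 TPM in Ifnar1-SA and 896 ± 91.2 TPM in WT, and Tnfrsf25, a TNF receptor family member, averaged 12.8 ± 5.13 TPM in Ifnar1-SA and 17.4 ± 6.36 TPM in WT. The list of other inhibitory surface proteins had 11 genes in the table, of which 7 were tested, with 0 at that p in either direction and a median of 0.23. Entpd1, which encodes the ectonucleotidase CD39, was at 5.08 ± 0.880 TPM in Ifnar1-SA and 3.38 ± 1.03 TPM in WT. Lilrb4a, an inhibitory immunoglobulin-like receptor, was at 1007 ± 198 TPM in Ifnar1-SA and 747 ± 140.3 TPM in WT, and Vsir, which encodes VISTA, at 5.16 ± 1.12 TPM in Ifnar1-SA and 4.17 ± 0.573 TPM in WT. Lair1, an inhibitory collagen receptor, was at 1.72 ± 0.424 TPM in Ifnar1-SA and 1.33 ± 0.354 TPM in WT. For each of these 4 genes the genotypes overlapped.

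The 15 tested phosphatases and other restrainers of signalling had a median log2 difference of −0.056. At an unadjusted limma p under 0.05, 1 was higher, against 1.44% of all genes, and 0 were lower, against 1.68%. The 1 higher gene was Ubash3b, a phosphatase of the T cell receptor pathway, at 9.38 ± 1.37 TPM in Ifnar1-SA and 6.81 ± 1.10 TPM in WT (limma unadjusted p = 0.04996, adjusted p = 0.9997). Its libraries overlapped, with Ifnar1-SA 2 at 7.85 TPM and WT 2 at 7.99 TPM. The adaptor gene Dok2 was at 138 ± 29.6 TPM in Ifnar1-SA and 103 ± 19.4 TPM in WT, Ptpn2 at 161 ± 16.6 TPM in Ifnar1-SA and 188 ± 19.7 TPM in WT, and the ubiquitin ligase gene Itch at 4.10 ± 0.385 TPM in Ifnar1-SA and 4.98 ± 0.864 TPM in WT. Ptpn6 and Ptpn11, the phosphatases that BTLA and PD-1 recruit, had log2 differences of −0.10 and −0.12.

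Trat1 had the smallest limma p of all genes on the 7 lists. It encodes TRIM, a transmembrane adaptor of the T cell receptor that has also been linked to the transport of CTLA-4 to the cell surface. Trat1 was at 11.5, 9.42 and 8.30 TPM in Ifnar1-SA and at 26.3, 27.9 and 20.2 TPM in WT. Each Ifnar1-SA library was well below each WT library, with a log2 difference of −1.26 and a standard error of 0.19 (limma unadjusted p = 2.77e-04, adjusted p = 0.177). The adjusted p was 0.0373 under quantile scaling, the 1 setting of 18 in which it passed. Of the 12 tested genes of trafficking, shedding and turnover, Trat1 was the 1 at an unadjusted limma p under 0.05. Over all genes, 1.68% were lower at that p, and the list had a median of −0.028. Fbxo38, which targets PD-1 for degradation, was at 8.44 ± 1.88 TPM in Ifnar1-SA and 10.04 ± 1.69 TPM in WT. Spop, a ubiquitin ligase adaptor linked to PD-L1, was at 34.4 ± 6.99 TPM in Ifnar1-SA and 38.4 ± 5.18 TPM in WT, and Adam17, a protease that sheds LAG-3, at 7.36 ± 0.926 TPM in Ifnar1-SA and 7.93 ± 1.39 TPM in WT.

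The 17 tested transcription factors linked to checkpoint genes had a median log2 difference of −0.032. At an unadjusted limma p under 0.05, 0 were higher, against 1.44% of all genes, and 1 was lower, against 1.68%. That gene was Tcf7, a factor of naive and memory T cells, at 7.85 ± 2.84 TPM in Ifnar1-SA and 14.4 ± 3.68 TPM in WT, with overlap (limma unadjusted p = 0.0261, adjusted p = 0.9997). Nr4a2, an activation-induced nuclear receptor, was at 7.80 ± 0.913 TPM in Ifnar1-SA and 9.73 ± 0.830 TPM in WT without overlap. Bach2, a repressor of effector genes, was at 5.38 ± 0.549 TPM in Ifnar1-SA and 7.67 ± 2.56 TPM in WT. Tox, a factor of exhausted T cells, was at most 0.498 TPM in any library.

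Interferon targets had a median log2 difference of 0.93, higher than that of the checkpoint genes. The list was chosen with earlier results of these data known. At an unadjusted limma p under 0.05, 6 of 13 tested genes were higher, against 1.44% of all genes, and 0 were lower, against 1.68%. None passed the adjusted threshold. Of the 13, 12 had a log2 difference above 0 and 1, Irf1, below 0 (−0.032). Ifit1, Ifit3 and Cxcl10 were too low to be tested, and their libraries overlapped. Irf7 was at 28.1, 11.5 and 42.2 TPM in Ifnar1-SA and at 2.01, 3.44 and 2.95 TPM in WT, Ifi27l2a at 992 ± 425 TPM in Ifnar1-SA and 267 ± 44.6 TPM in WT, Bst2 at 517 ± 144 TPM in Ifnar1-SA and 246 ± 29.6 TPM in WT, and Xaf1 at 54.1 ± 24.3 TPM in Ifnar1-SA and 15.5 ± 3.26 TPM in WT. The order of the Ifnar1-SA libraries differed between checkpoint genes. Cd274 and Cd96 had the order of Irf7, highest in Ifnar1-SA 3 and lowest in Ifnar1-SA 2. Lag3, Btla and Cd200 were also lowest in Ifnar1-SA 2, but highest in Ifnar1-SA 1. Ifnar1-SA 3 had the most Irf7 and the least Ctla4, Tigit and Pdcd1 among the Ifnar1-SA libraries, and Ifnar1-SA 2 had the least Irf7 and the most Ctla4 and Havcr2. Orders of 3 libraries are few and can match by chance, and a link between Irf7 and the checkpoint genes was not tested. Ifnar1 itself was at 25.1 ± 3.09 TPM in Ifnar1-SA and 31.1 ± 9.51 TPM in WT.

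**Figure D4:**
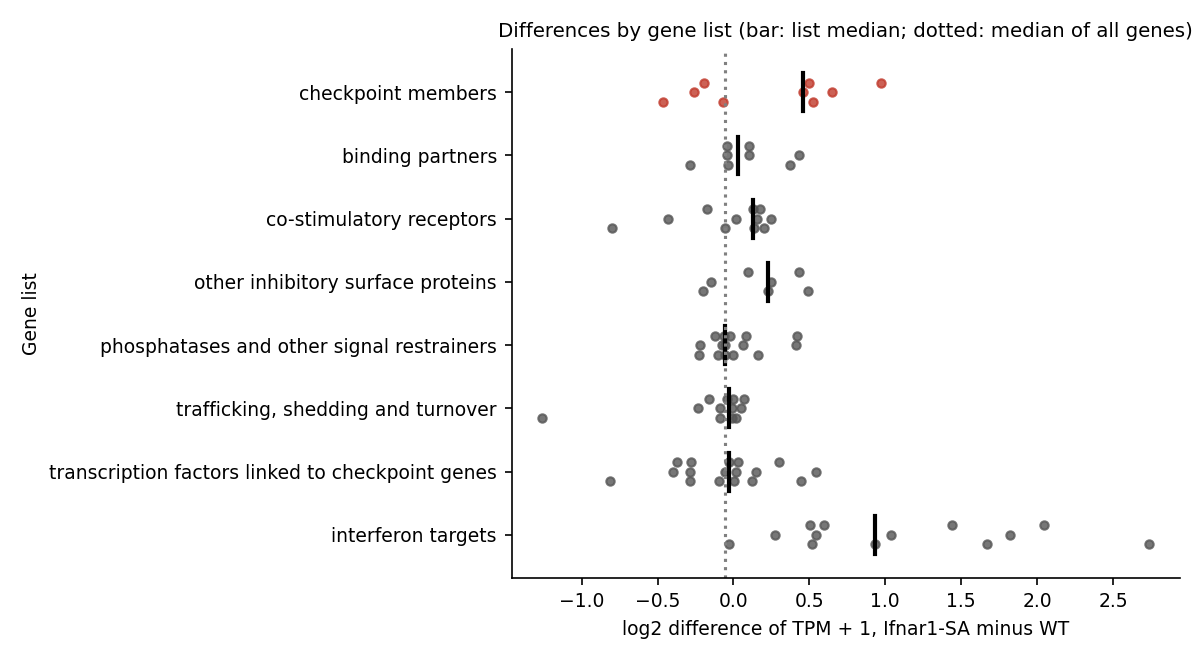
Log2 difference of TPM + 1, Ifnar1-SA minus WT, of the tested genes in each list; points are genes, bars are list medians and the dotted line is the median of all genes tested. The checkpoint genes split into 5 above and 4 below 0, and the interferon targets have the highest median.

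**Figure D5:**
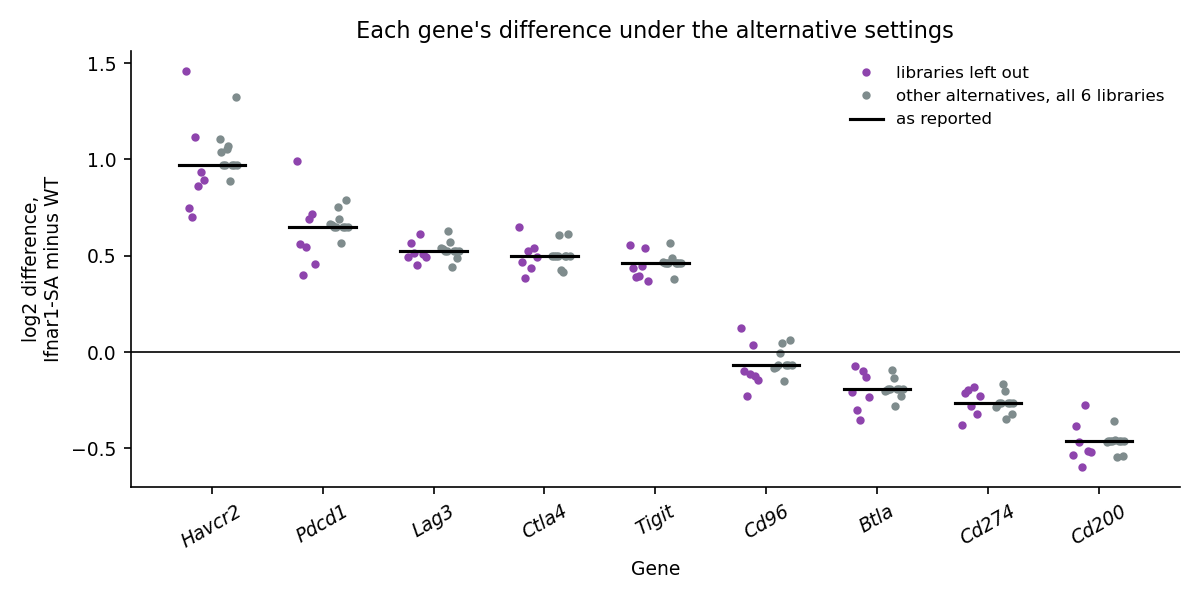
Log2 difference, Ifnar1-SA minus WT, of the 9 tested genes as reported (bar), with libraries left out (7 settings) and under up to 11 other alternatives; points are settings. Cd96 is the gene whose points fall on both sides of 0, and Havcr2 and Pdcd1 have the widest spread, with their highest points without WT 1.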

How the data were processed

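TPM values per gene (24493 symbols, 6 libraries) were made by the authors, and the submitters' processing notes name Salmon, mm10 and GRCm38. Its version, the annotation, read filters and the step to genes are not given in the sources. Each column matched the title of 1 sample. TPM holds no counts, so no interval for counting error could be given. Values were tested as log2(TPM + 1) with limma 3.58.1 (R 4.3.3) and an intensity trend, two-sided, Benjamini-Hochberg adjusted over 12141 genes averaging 1 TPM or more, threshold 0.05, without a replicate block. Single values used exact two-sided permutation tests, which cannot go below 0.1. The procedure was tested on simulated data.

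The genes, lists, ratios and alternatives were chosen with earlier results of these data known. All 10 checkpoint genes are named, and from each of 7 lists the up to 4 tested genes of smallest p, since none passed (1 such gene is not reported here), with the most abundant or near-absent cell type markers, Ifnar1 and Foxp3. Neighbours, ratio partners and other genes were chosen after their values were seen. Positions are from GENCODE M21 (GRCm38), by symbol. Tables and figures were made in Python 3.11.15 with scipy 1.17.1, matplotlib 3.10.9 and pandas 2.3.3.

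Alternatives were pseudocounts of 0.1 and 0.5, no filter, a filter at 5 TPM, median-of-ratios scaling, quantile scaling, centring on the T cell markers, no trend, robust empirical Bayes, array weights, a replicate block, each library left out, and WT 2 and Ifnar1-SA 1 left out together.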

Additional observations from a re-analysis of the deposited data

How the results depend on the processing

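No checkpoint gene passed the adjusted threshold under any of the 18 alternatives. The number of genes past it over all genes, 7 as reported, was 15 and 14 with pseudocounts of 0.1 and 0.5, 1 with a mean of at least 5 TPM, 12 with robust empirical Bayes and with array weights, 0 with a replicate block, 14 to 28 with a library left out and 20 without both WT 2 and Ifnar1-SA 1. Checkpoint genes higher in Ifnar1-SA at an unadjusted p under 0.05, 4 as reported, numbered 2 with median-of-ratios scaling and with centring on the T cell markers, 1 to 5 with a library left out and 1 without that pair. Those lower numbered 1 (Cd200) with quantile scaling, with centring on the T cell markers and with array weights, 0 as reported, and 0 to 1 with a library left out. Checkpoint genes without overlap, 3 as higher and 1 as lower as reported, were 3 to 5 as higher with a library left out (2.62% to 8.43% of all genes) and 1 to 2 as lower (4.62% to 23% of all genes). They were 2 as higher, without Ctla4, with median-of-ratios scaling (3.66%) and with centring on the T cell markers (1.3%), 0 as lower with median-of-ratios scaling (4.21%), and 4 as higher (6.81%) and 2 as lower (24.5%) without the pair. The Cd96 difference turned positive under quantile scaling (0.046), with array weights (0.060), without WT 1 (0.13) and without Ifnar1-SA 2 (0.038), and ran from −0.23 to 0.13 with a library left out. That of Adam17 did so under median-of-ratios scaling (0.0059) and without WT 2, with a range of −0.22 to 0.0074, and that of Tnfrsf14 ran from −0.023 without Ifnar1-SA 1 to 0.20. Trat1 passed under quantile scaling (adjusted p = 0.0373), and Irf7 without Ifnar1-SA 2 (0.0427). Apart from the fewer genes or libraries in some settings, the cause was not tested. Centring on the T cell markers moved the median of all genes to −0.14, against −0.056 as reported. Replicate numbers did not pair the libraries, since same-numbered libraries deviated with r of −0.11, −0.11 and 0.15, and with the replicate block 4 checkpoint genes were higher at an unadjusted p under 0.05, with Pdcd1 among them in place of Havcr2. Unknown depth limits the low genes Cd160, Cd96 and Cd226 most.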
